A study of Bos taurus with 6 samples.

Results

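The miR-378 family was followed in primary cattle myoblasts, cells that divide and later join into muscle fibers. Its members were taken by name, as every miRNA listed as bta-miR-378 with or without a letter, which gave 4 of the 765 listed miRNAs (bta-miR-378, bta-miR-378b, bta-miR-378c and bta-miR-378d). The cells came from the longissimus dorsi muscle of fetal beef cattle and were kept in differentiation medium for 4 days. The RSV group held 3 cultures with 20 μM resveratrol, a plant polyphenol dissolved in DMSO, and the control group held 3 cultures with DMSO alone. The cells were enriched by moving the medium to a new dish after a short first culture, so other cells of the muscle may have remained, and the methods describe the collections of each group as 3 independent experiments without saying which fetus each came from. P-values therefore cover no spread beyond these collections.

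A miRNA is a short RNA that guides a protein complex to matching sites in mRNAs and lowers their output. Members of a miRNA family share the bases at the start of the mature sequence, the seed, which chooses most targets. The members here were matched by name, and a shared seed was not checked, since no mature sequences were used. miR-378 is made from within PPARGC1B, a gene for a coactivator of mitochondrial genes, and it is known for roles in mitochondrial and fatty acid metabolism. It rises during myogenesis and represses MyoR, a transcription factor that holds back muscle differentiation.

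RefSeq (assembly ARS-UCD2.0) lists 5 MIR378 genes in cattle. MIR378-1 lies within the span of PPARGC1B and MIR378-2 within that of CALCR, the calcitonin receptor gene. The table has a single entry for bta-miR-378, so reads from these genes cannot be told apart. MIR378C lies within ZNF521, which encodes a zinc finger protein, and MIR378D within MSI2, which encodes an RNA-binding protein. MIR378B lies within no listed gene, between THY1 and NECTIN1. How reads that fit several family members were shared out is not given in the sources used here, so the values of the members are uncertain in this respect.

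The authors' table gives the mean of each group in normalized reads, which are reads divided by a size factor that scales each library for its depth. A mean of 3 whole read counts over known size factors can often be traced back to the counts. This gave 1 combination of whole reads in both groups for 583 of the 609 miRNAs with group means of up to 800, while 26 had several combinations and 0 had none. The libraries behind these reads carry no sample number and are called RSV a, RSV b and RSV c, with size factors of 1.54, 1.29 and 0.935, and DMSO a, DMSO b and DMSO c, with 0.922, 0.823 and 0.729. The recovered reads summed to between 13419 and 28392 per library, which leaves out the abundant miRNAs and is not the full depth. Reads by library were obtained for bta-miR-378b and bta-miR-378d, where 0.0123 and 0.0292 further combinations were expected by chance, and the 2 other members are known by their group means only.

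Over the 209 miRNAs with recovered reads and a mean of at least 10 normalized reads, the Pearson correlation of log2(normalized reads + 1) was 0.955 to 0.957 between DMSO libraries and 0.897 to 0.951 between RSV libraries. RSV c stood apart from its group. It had correlations of 0.907 with RSV a and 0.897 with RSV b, and of 0.926 to 0.939 with the DMSO libraries. These values are across miRNAs, which are not independent replicates. The muscle miRNAs bta-miR-206 and bta-miR-1 ranked 10 and 24 of 765 by RSV mean, and all 7 muscle miRNAs of a fixed list were present. The sum of 4 epithelial miRNAs of another list was 70.1 normalized reads in RSV and 62.8 in DMSO, against 170749 and 184001 for the muscle list.

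bta-miR-378 was by far the most abundant of the family, with a mean of 28136 normalized reads in RSV and 30108 in DMSO. It ranked 25 of 765 in each group. Its neighbours by the mean over both groups were bta-miR-1, a muscle miRNA with means of 28912 and 30883, and bta-miR-30d, with 24641 and 27361. bta-miR-378c had means of 2532 in RSV and 2651 in DMSO, ranks 106 and 100, and by the mean over both groups it stood between bta-miR-410 (2889 and 2321) and bta-miR-432 (2993 and 1982). bta-miR-378d followed with 102.6 and 115.7 normalized reads, and by the same mean it stood between bta-miR-146b (122.0 and 112.9) and bta-miR-874 (87.1 and 127.8). bta-miR-378b had 51.6 in RSV and 122.4 in DMSO, between bta-miR-503-3p (82.1 and 94.2) and bta-miR-376a (96.4 and 76.1) by mean over both groups, and took rank 282 in RSV but 233 in DMSO. Mature miRNAs have nearly the same length, so these levels were compared without division by length.

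The group means of the family members thus differed widely. bta-miR-378 made up 91.3% of the family's summed group mean in RSV and 91.2% in DMSO, and bta-miR-378c 8.21% and 8.03%. In RSV the mean of bta-miR-378 was 11.1 times that of bta-miR-378c and 274 times that of bta-miR-378d. Neither group separated the lowest members beyond their spread. In DMSO bta-miR-378b (122.4 ± 5.69, SD, n = 3) and bta-miR-378d (115.7 ± 21.8, SD, n = 3) had similar means. In RSV bta-miR-378b had 51.6 ± 71.1 and bta-miR-378d 102.6 ± 2.78 (SD, n = 3), with bta-miR-378b above bta-miR-378d in RSV c and below it in RSV a and RSV b.

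On the authors' scaling all 4 members had a lower group mean in RSV than in DMSO, as did 48.1% of the 403 miRNAs with a mean of at least 10 in a group. The log2 ratio of the authors' means was −0.10 for bta-miR-378 and −0.07 for bta-miR-378c, and both turned positive as shares of the group sum. With no reads by library, neither ratio has a replicate error or a test. Counting error alone would give standard errors of 0.0070 and 0.023 on the log2 scale. The median standard error of the log2 difference was 0.12 over the 66 tested miRNAs with a mean of at least 100. Those miRNAs are less abundant than both members and carry more counting error, 0.11 for bta-miR-378d. The value of 0.12 therefore does not give the replicate error of bta-miR-378 or bta-miR-378c. Of the 143 miRNAs with at least 1000 normalized reads in both groups, 92 had a larger absolute log2 ratio than bta-miR-378 and 113 a larger one than bta-miR-378c.

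The direction of these small ratios depended on the scaling. The group means of all miRNAs summed to less in RSV than in DMSO, by −0.15 on the log2 scale. Taken as a share of that sum, bta-miR-378 was 0.424% of miRNA reads in RSV and 0.410% in DMSO, and bta-miR-378c was 0.0381% and 0.0361%. The log2 ratios then turned to 0.047 and 0.079, so that neither member had a direction that held under both scalings. The whole family held 0.464% of the summed means in RSV and 0.450% in DMSO.

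**Figure D1:**
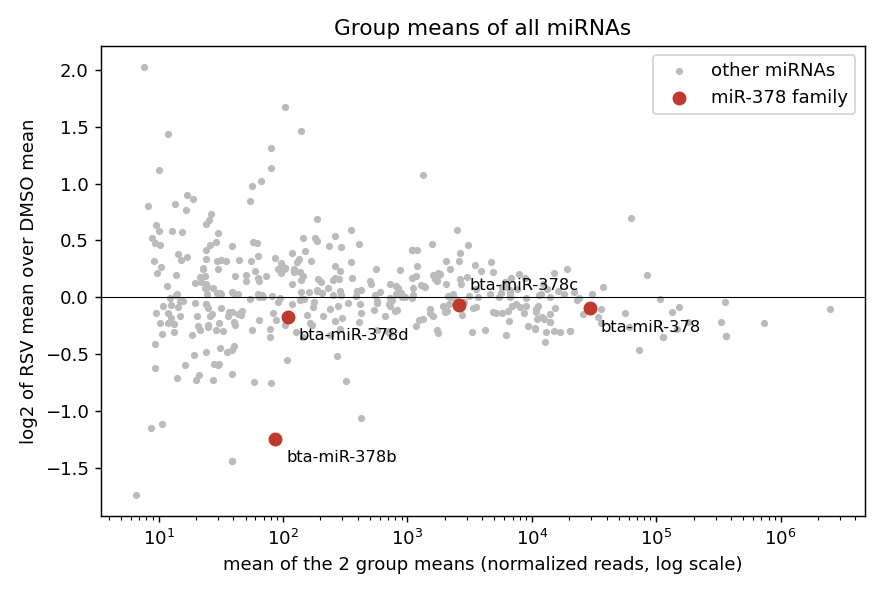
Log2 ratio of the RSV to the DMSO group mean (vertical axis) against the mean of both group means in normalized reads (horizontal log axis), for miRNAs with a mean of at least 10 in a group, with the miR-378 family in red. bta-miR-378, bta-miR-378c and bta-miR-378d lie near 0, at −0.10, −0.07 and −0.17, and bta-miR-378b lies at −1.25.

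No difference between the groups was detected for bta-miR-378d. It had 105.7, 100.5 and 101.6 normalized reads in RSV a, RSV b and RSV c, from 163, 130 and 95 reads. The DMSO libraries had 120.4, 134.8 and 91.9 normalized reads, from 111, 111 and 67 reads. The groups overlapped, since DMSO c lay below every RSV library, and the RSV libraries were closer to each other (SD 2.78) than the DMSO libraries (SD 21.8). limma voom, a linear model on log2 reads weighted by their precision, gave a log2 difference of −0.17 (standard error 0.14, 95% interval −0.49 to 0.15, Benjamini-Hochberg adjusted p = 0.488). Its standard errors and p-values draw partly on the spread of the other tested miRNAs. A two-sided exact permutation test over the libraries gave p = 0.4, where the smallest possible p is 0.10.

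bta-miR-378b differed within the RSV group more than between the groups. RSV a had 11.03 normalized reads (17 reads) and RSV b 10.05 (13 reads), whereas RSV c had 133.6 (125 reads). The DMSO libraries had 128.0, 122.7 and 116.6 normalized reads, from 118, 101 and 85 reads. RSV a and RSV b thus lay far below every control library and RSV c above all of them. The groups overlapped for both tested members, whereas they did not for 33.0% of the 209 tested miRNAs. Exact 95% Poisson intervals, which cover counting error only, ran from 6.42 to 17.7 in RSV a, from 5.35 to 17.2 in RSV b and from 111 to 159 in RSV c. RSV c was 12.1 times RSV a and 13.3 times RSV b. The SD was 71.1 normalized reads around a mean of 51.6 in RSV, and 5.69 around 122.4 in DMSO.

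**Figure D2:**
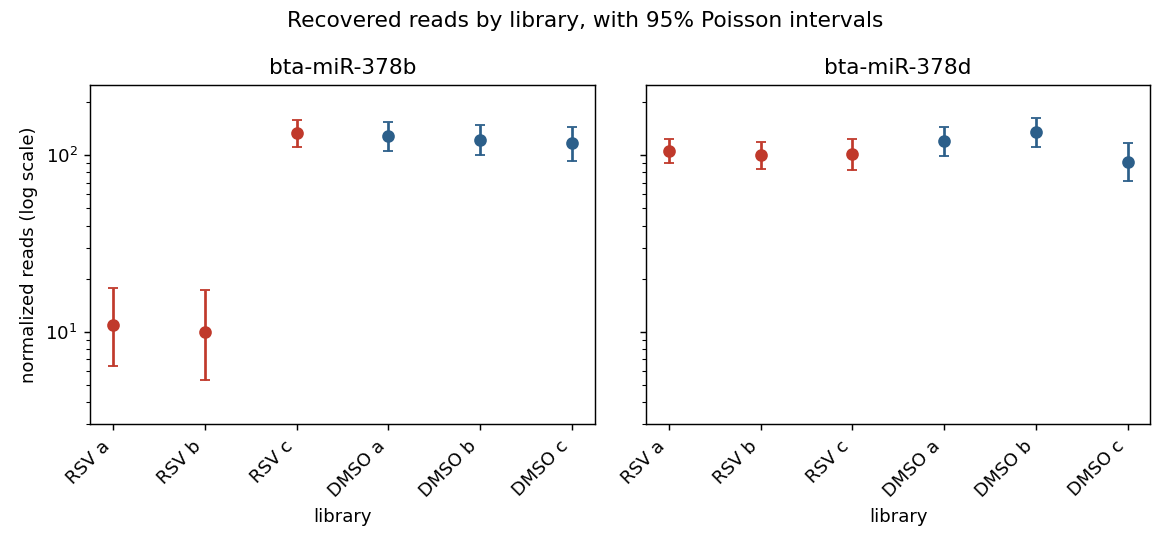
Normalized reads (vertical log axis) of bta-miR-378b (left) and bta-miR-378d (right) in each RSV library (red) and DMSO library (blue), with 95% Poisson intervals as bars. For bta-miR-378b, RSV a and RSV b sit at 11.03 and 10.05 and the other libraries between 116.6 and 133.6, while all 6 libraries of bta-miR-378d lie between 91.9 and 134.8.

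Whether bta-miR-378b passed the test depended on single libraries. limma voom called it lower in RSV, with a log2 difference of −2.57 (standard error 0.65, Benjamini-Hochberg adjusted p = 0.0422), the most negative difference of the 209 tested miRNAs. The same fit called 20 of these miRNAs (9.57%), 9 of them lower in RSV (4.31%), and 1 of the 2 tested members was among them. The count of 20 ranged from 4 without DMSO c to 23 without RSV c when 1 library was left out. A fit on log2(normalized reads + 1) without precision weights gave −2.24 with an adjusted p of 0.129 by limma, which is not under the threshold of 0.05. When single libraries were left out, only the fit without RSV c kept the call, at −3.49 (standard error 0.25, adjusted p = 2.5e-05 by limma voom), in a fit that called 5.26% of the tested miRNAs as lower in RSV. In the other 5 fits the adjusted p lay between 0.110 and 0.175 by limma voom. The difference was −2.55, −2.59 and −2.52 without DMSO a, DMSO b and DMSO c, and −1.85 and −1.92 without RSV a and RSV b. The two-sided exact permutation test, which cannot go below 0.10, gave p = 0.4 for a difference of −2.24 in log2(normalized reads + 1). The log2 ratio of the group means was −1.25, and 1.74% of the 403 miRNAs with a mean of at least 10 in a group had a mean ratio of 2 or more in that direction. Its standard error was larger than that of 203 of the 209 tested miRNAs.

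The reads of the low members can also be set against each other within a library, without division by a size factor. The reads themselves were recovered with the estimated size factors. bta-miR-378b made up 9.44% of the 180 reads of bta-miR-378b and bta-miR-378d in RSV a (exact Clopper-Pearson 95% interval 5.598 to 14.7%). In RSV b it made up 9.09% of 143 reads (4.93 to 15.04%). In RSV c the share was 56.8% of 220 reads (49.99 to 63.5%). The DMSO libraries had 51.5%, 47.6% and 55.9%, from 229, 212 and 152 reads. The interval of RSV c overlapped that of every control library, and the intervals of RSV a and RSV b overlapped none of them. Over the groups, the log2 ratio of bta-miR-378b to bta-miR-378d reads was −2.06 ± 2.13 in RSV and 0.10 ± 0.24 in DMSO (SD, n = 3, two-sided exact permutation test, p = 0.4). With 3 libraries a group this test cannot go below 0.10, so it cannot show whether the members differ in their response.

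**Figure D3:**
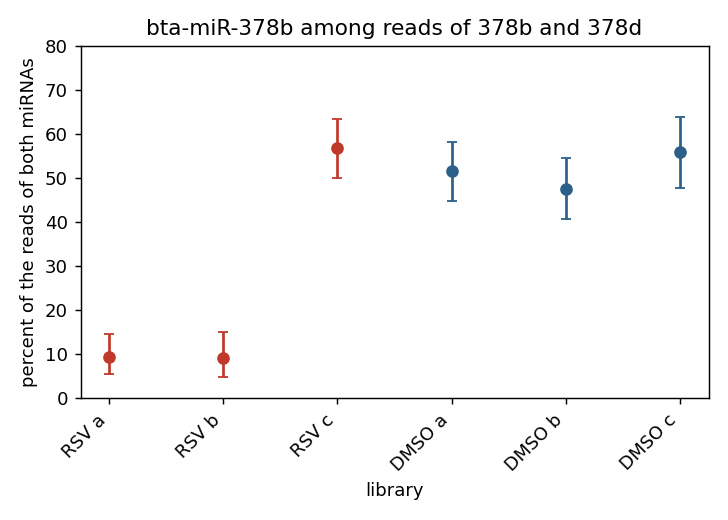
Percent of bta-miR-378b among the reads of bta-miR-378b and bta-miR-378d (vertical axis) in each RSV (red) and DMSO (blue) library, with exact 95% binomial intervals as bars. RSV a and RSV b are at 9.44% and 9.09%, and the other 4 libraries lie between 47.6% and 56.8%.

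Few miRNAs spread as widely within the RSV group. The ratio of the highest to the lowest RSV library, after adding 0.5 normalized reads, was 12.7 for bta-miR-378b, rank 4 of 209, against a median of 1.296. It reached 10 or more for 4 miRNAs (1.91%), namely bta-miR-150, bta-miR-142-5p, novel_592 and bta-miR-378b, and for 0 miRNAs among the DMSO libraries. Among the DMSO libraries the ratio of bta-miR-378b was 1.097, rank 190. bta-miR-378d had a ratio of 1.05 in RSV, rank 199, and of 1.46 in DMSO. The narrow control range and the wide RSV range thus met in bta-miR-378b, which was also the most abundant of these 4 miRNAs, at a mean of 87.0 normalized reads over all libraries.

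**Figure D4:**
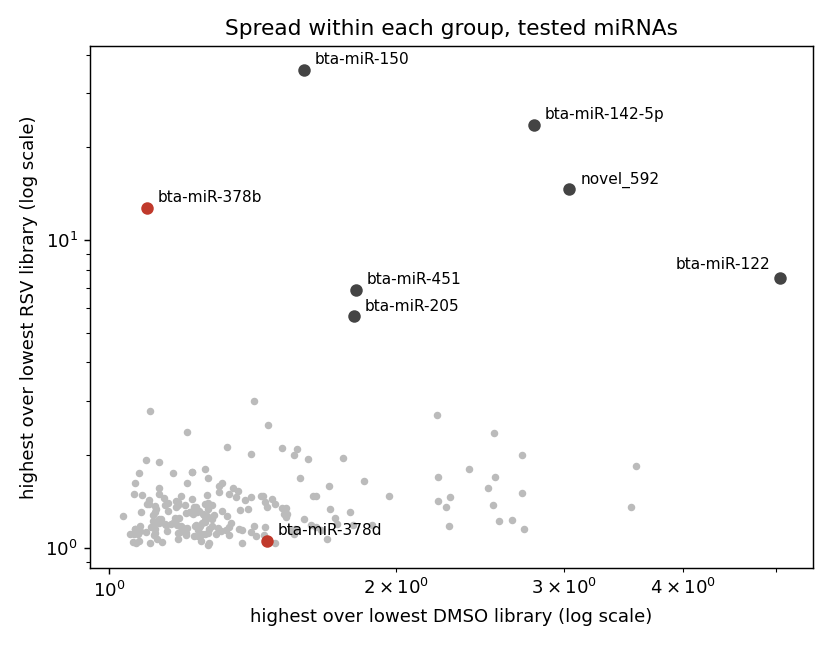
Ratio of the highest to the lowest RSV library (vertical log axis) against the same ratio in DMSO (horizontal log axis) for the 209 tested miRNAs, with the miR-378 members in red and other wide-spread miRNAs in dark grey. bta-miR-378b stands at 12.7 in RSV and 1.097 in DMSO, and bta-miR-378d at 1.05 and 1.46.

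The miRNAs most like bta-miR-378b over the 6 libraries, by Pearson's r of log2(normalized reads + 1), were bta-miR-2904 (r = 0.962), bta-miR-150 (r = 0.962) and bta-miR-497 (r = 0.955). bta-miR-150, known for its high level in mature lymphocytes, had 3.24, 1.55 and 72.7 normalized reads in RSV a, RSV b and RSV c and 28.2, 25.5 and 41.2 in the DMSO libraries. bta-miR-497, a relative of miR-15 and miR-16, had 17.5, 16.2 and 26.7 in RSV and 26.0, 26.7 and 31.6 in DMSO, and bta-miR-2904 ran from 11.6 to 22.5 across RSV libraries and from 24.7 to 27.9 across DMSO libraries. These miRNAs were picked by this correlation, so a direction shared with bta-miR-378b follows from the choice. The gap between RSV c and the other RSV libraries was far smaller for bta-miR-497 and bta-miR-2904 than for bta-miR-378b. None of the 3 was called by limma voom, with adjusted p-values of 0.0844, 0.109 and 0.151 for bta-miR-2904, bta-miR-150 and bta-miR-497. For bta-miR-378d the most similar were bta-miR-2346 (r = 0.953), novel_743 (r = 0.894) and bta-miR-2284ab (r = 0.870), with 12.3 to 46.1 normalized reads in the 6 libraries. These correlations describe 6 libraries of 2 groups and rest on shared size factors.

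Markers of blood cells also moved among the RSV libraries. The list held 5 miRNAs, of which 4 were in the table and 1, bta-miR-144, was not among its entries. Their summed level was 72.7, 465 and 183 normalized reads in RSV a, RSV b and RSV c and between 65.6 and 130 in DMSO. bta-miR-142-5p, a miRNA of blood cells, had 4.54, 2.32 and 66.3 in RSV a, RSV b and RSV c, the same order as bta-miR-378b, and 6.07 to 17.8 in DMSO. bta-miR-142-3p, from the same hairpin, had 1.297, 0 and 35.3 in RSV and 1.08 to 5.49 in DMSO. bta-miR-451, a miRNA of red blood cells, was highest in RSV b, at 463 normalized reads. It made up most of the list's sum in every library except RSV c, where it had 81.3 of 183. bta-miR-223, a miRNA of myeloid cells, had 0 reads in every RSV library and 1.08, 3.64 and 9.60 normalized reads in DMSO, from 1, 3 and 7 reads. bta-miR-378b in the DMSO libraries stood at the level of RSV c while bta-miR-142-5p stood well below it. The part of other cells in the values of bta-miR-378b was not tested, and fewer cells of a type and less RNA per cell cannot be told apart in such bulk samples. The 2 RSV libraries low in bta-miR-378b also had the largest size factors. The share of bta-miR-378b among the reads of both members is not divided by a size factor and was low in the same libraries. Its reads were recovered with the size factors, so the share is no separate check. Scaling by the total of recovered reads gave a log2 difference of −2.56 (limma voom, adjusted p = 0.0441). That total was also largest in RSV a and RSV b, at 28392 and 25019 reads. It rises with the size factor, so this scaling is no separate check. The part of library depth in the values of bta-miR-378b was not tested.

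Of 13 mRNAs linked to miR-378 by earlier work, the identifiers of 2 were paired with a name in the study's list of DE mRNAs, and the others were not analysed here. Both therefore differ between the groups by their choice, and no test is given. The count of 2 was not set against the share of DE mRNAs among all mRNAs, so it is no result about the list. Their reads were recovered in the same way, in mRNA libraries called x, y and z that were not linked to the miRNA libraries. MSC (ENSBTAG00000005404), which encodes MyoR, had 192, 254 and 132 normalized reads in RSV and 325, 363 and 328 in DMSO. Each RSV library lay below each DMSO library, which the choice from DE mRNAs favours. The share of all mRNAs without overlap was not computed, so this is no result about MSC. The means were 193 ± 61.0 and 339 ± 20.9 (SD, n = 3), a log2 ratio of −0.81. PPARGC1A (ENSBTAG00000017024), which encodes PGC-1α, a coactivator of mitochondrial biogenesis and a relative of the product of PPARGC1B, had 34.0, 39.7 and 56.0 normalized reads in RSV and 105, 90.7 and 107 in DMSO. Its log2 ratio was −1.22.

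**Figure D5:**
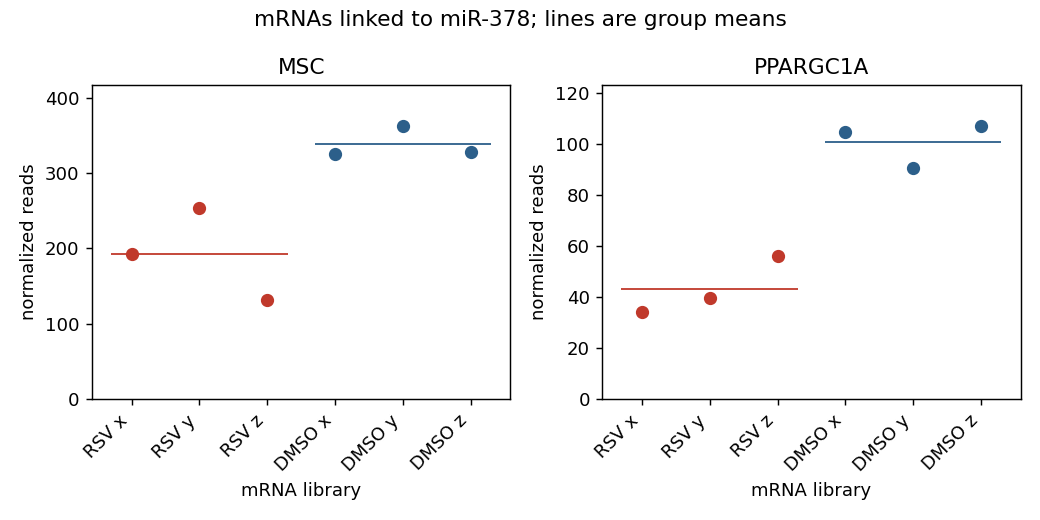
Normalized reads (vertical axis from 0) of MSC (left) and PPARGC1A (right) in each RSV (red) and DMSO (blue) mRNA library, with group means as lines. The highest RSV value of MSC is 254 against a lowest DMSO value of 325, and for PPARGC1A these are 56.0 and 90.7. Both genes were taken from the study's DE mRNAs, a choice that favours such gaps.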

How the data were processed

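The authors mapped miRNA reads to UMD_3.1.1 (bosTau8) with Bowtie 0.12.9, named miRNAs by miRBase and compared the groups with DESeq, per the paper's methods and the labels. The aligner and counter for mRNA reads are not given in the sources used here. The deposited table holds 1 mean of normalized reads per group, and its log2 fold change and p-value columns, made by the authors, were not used. Size factors were estimated from the smallest means, and whole reads whose scaled mean matched the 10 printed digits, to within 1.1 times the rounding error, were searched for each group. A miRNA was used when 1 combination fitted each group mean of up to 800. In the mRNA part lost decimal points were restored by the same search.

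The comparison of RSV with DMSO used the voom method of limma 3.58.1 in R 4.3.3, with library sizes from the size factors, a minimum mean of 10 and Benjamini-Hochberg adjustment over 209 miRNAs, called under 0.05. Python 3.11.15 did the search and the plots (scipy 1.17.1, numpy 2.4.6, matplotlib 3.10.9, pandas 2.3.3). Search and fit were tested on simulated data. Groups came from the sample titles. Members, lists and tests were chosen with earlier results of these data known. Named miRNAs were the members, the 3 most similar by correlation, the neighbours by level, marker miRNAs and those with the widest RSV spread, the last chosen after their values were seen. Alternatives were another scaling, centring, pseudocount, test and minimum mean, a stricter search, and each library left out in turn. Total depth per library is unknown, and the Poisson and binomial intervals cover counting error only. Those of limma rest on the spread between libraries, of the miRNA itself and partly of the other tested miRNAs.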

Additional observations from a re-analysis of the deposited data

How the results depend on the processing

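For bta-miR-378b the log2 difference of −2.57 stayed negative in every alternative run. The call was kept with no minimum mean (−2.55, adjusted p = 0.000551), with scaling by total recovered reads (−2.56, adjusted p = 0.0441) and with centring on the median (−2.60, adjusted p = 0.0396), all by limma voom. None of these is a separate check. With no minimum mean the reads were the same, and the standard error fell from 0.65 to 0.44 as limma also drew on the added low miRNAs. Centring moved every difference by only 0.030, and the total of recovered reads rises with the size factor. bta-miR-378b was no longer past the threshold with limma on log2(normalized reads + 1), at −2.24. Its difference ranged from −3.49 to −1.85 when 1 library was left out, where the call was kept only without RSV c. bta-miR-378d stayed negative and uncalled in every alternative, from −0.31 to −0.06 with 1 library left out. bta-miR-378 moved from −0.10 to 0.047 as a share of the group sum and to −0.13 when centred on the median tested miRNA, and bta-miR-378c moved from −0.07 to 0.079 as a share. The count of 20 called miRNAs ranged from 4 to 23 with 1 library left out. It fell to 5 without DMSO a, 7 without DMSO b, 4 without DMSO c and 13 without RSV a. It was 5 and 2 when only miRNAs with fewer than 0.01 and 0.001 expected chance combinations of reads were tested, which removes many miRNAs, bta-miR-378b and bta-miR-378d included, so these have no value there. The cause of the changes with single libraries was not tested. The limit of 0.01 was added after seeing the data. edgeR and DESeq2, planned for the case that the deposited columns qualified as counts, were not run on the recovered reads. No paired analysis was possible because the recovered libraries carry no replicate numbers. The reads of bta-miR-378 and bta-miR-378c by library could not be recovered, so their replicate error is unknown.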

Other observations

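A few miRNAs outside the family varied widely between libraries of a group. bta-miR-122, a miRNA of liver cells, had 200.5 normalized reads in RSV a against 26.3 and 38.5 in the other RSV libraries, and 26.0, 17.0 and 87.8 in DMSO. bta-miR-205, a miRNA of epithelia, had 10.4, 31.7 and 60.9 after resveratrol and 64.0, 35.2 and 39.8 in the controls. bta-miR-499, a muscle miRNA, varied less within groups and had 91.5, 162 and 89.8 in RSV and 41.2, 44.9 and 52.1 in DMSO. Its log2 difference was 1.27 (limma voom, adjusted p = 0.0251). The rest of the muscle list did not follow it. The means of bta-miR-206, bta-miR-1, bta-miR-486 and bta-miR-208b were lower in RSV than in DMSO. Those of bta-miR-133a (7817 and 7453) and bta-miR-133b (5687 and 5550) were slightly higher. The summed endothelial markers, bta-miR-126-3p and bta-miR-126-5p, ran from 181 to 374 in RSV and from 243 to 322 in the controls, and the 1 neuronal marker in the table had at most 6.51 normalized reads in a library. novel_592, a candidate miRNA of the authors' search, had 1.297, 0.773 and 18.2 in RSV and 15.2, 21.9 and 6.86 in DMSO, from 1 to 18 reads per library.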
